A study of Mus musculus with 12 samples.

Results

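The genes described here are 37 mouse genes of S phase and mitosis, chosen by name: the proliferation marker Mki67 and genes for entry into S phase, DNA synthesis and chromosome segregation. A probe set was used where the array's annotation gives it 1 gene symbol. Mki67 has 1 such probe set, and each other gene was read from the probe set with its highest mean over the 12 arrays. Of the 37 genes, 36 had a probe set, Ccnb1 (cyclin B1) being the exception, and 34 passed the filter on low values, which 12792 of all 18194 genes on the array passed. The kinesins Kif20a and Kif23, which act at the central spindle, had means of 4.54 and 4.64 on the log2 scale against a filter of 4.73 and were not tested. All levels are log2(signal + 16) after quantile normalization, and changes are differences on that scale, which understates the fold change of low genes.

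RNA came from dendritic cells isolated from lymph nodes of C57BL/6 mice and kept in culture at 37 °C. The 6 groups of 2 arrays (A and B) carry the genotype labels WT or p38a-knockout (KO), each at 0, 2 and 4 h of Pam3CSK4, a synthetic lipopeptide ligand of the receptor TLR2, labelled as given at 1 mg/ml. The kinase p38a is the product of Mapk14, and the series asks which expression in these cells depends on it. The labels do not say in which cells Mapk14 was deleted, nor that arrays A and B came from separate animals or cultures, so p-values measure only the spread between these arrays. All arrays of 2 and 4 h had the ligand, so the ligand and the time in culture cannot be told apart.

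When a cell enters the cycle, cyclin E and its kinase release E2F transcription factors, which raise the genes for the MCM helicase and for nucleotide supply. Later the CDK1 kinase with cyclins A and B, the Aurora and Polo kinases and the spindle motors are made for mitosis. These transcripts usually rise and fall as a group in dividing cells, which is why Mki67, whose protein coats mitotic chromosomes, is used as a marker of cycling cells. Dendritic cells in lymph nodes are mostly regarded as differentiated cells that divide little.

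The deposited signals differed 1.79-fold between arrays in their trimmed mean, which is why they were put on a common scale. Arrays of a group correlated at 0.987 to 0.990 across genes, and the best match of an array in another group at 0.984 to 0.989. Mapk14 did not check the labels: its brightest probe set was 0.31 ± 0.08 (SE) higher, not lower, in the arrays labelled KO averaged over the times (limma, adjusted p = 0.014). Genotype is therefore given below as labelled. All 13 dendritic cell markers with a probe set were measured above the filter.

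Mki67, on chromosome 7 at positions 135689784 to 135716450 of GRCm38.p6, rose steeply within 2 h in both genotypes and was on its way down by 4 h. In arrays labelled WT it read 6.47 and 6.45 at 0 h, 10.52 and 10.38 after 2 h, and 9.11 and 9.05 after 4 h. In arrays labelled KO it read 6.84 and 6.78, then 10.42 and 10.46, then 8.82 and 8.98. All 2 h arrays lie above all 4 h arrays, and these above all 0 h arrays, with no overlap in either genotype. The rise at 2 h was 3.99 ± 0.09 (SE, n = 2 arrays a group; 15.9-fold; limma across all genes, adjusted p = 4.5e-14) in WT and 3.63 ± 0.09 (12.4-fold, adjusted p = 1.9e-13) in KO. At 4 h the level was still 2.62 (adjusted p = 1.5e-11) and 2.09 (adjusted p = 1.3e-10) above that at 0 h. From 2 h to 4 h it fell by 1.37 in WT (adjusted p = 1.4e-07) and fell by 1.54 in KO (adjusted p = 4.1e-08). As a normalized linear signal it went from 72.2 to 1386 to 526 in WT and from 96.3 to 1375 to 464 in KO, so that 34.5% and 28.7% of the rise was left after 4 h.

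Among the 12792 genes tested, the Mki67 rise ranked as number 2 in WT and 3 in KO at 2 h, and 11 and 19 at 4 h. Each of these time calls was kept under all 23 alternatives tried, with the 2 h rise between 3.41 and 4.24 in WT and between 3.16 and 3.82 in KO. Mki67 was already known from earlier work on these data to rise, so the values above describe it and are no independent support for its rise. The question that they raise is whether the other S phase and mitosis genes moved with it.

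No joint rise was seen. Of the 34 tested genes, 4 rose and 3 fell in WT at 2 h, where 8.43% of all genes tested rose and 11.5% fell at an adjusted p under 0.05. In WT at 4 h 3 rose and 3 fell (all genes, 8.31% and 9.9%). In KO 2 rose and 3 fell at 2 h (all genes, 7.85% and 11.7%), and 2 rose and 2 fell at 4 h (all genes, 7.24% and 10.9%). The shares of the 34 genes are thus near those of all genes.

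Between 2 h and 4 h, 0 genes rose and 3 fell in WT (all genes, 5.32% and 5.75%), and 1 rose and 2 fell in KO (all genes, 6.46% and 7.25%). The 9 genes called in any of these 6 time comparisons were Mki67, Mcm3, Mcm6, Mcm7, Tyms, Tpx2, Cenpa, Cdc20 and E2f8, and the other 25 were called in none. Mki67, Mcm7 and Cenpa were called in all 4 comparisons with 0 h, the first upward and the other two downward.

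**Figure D1:**
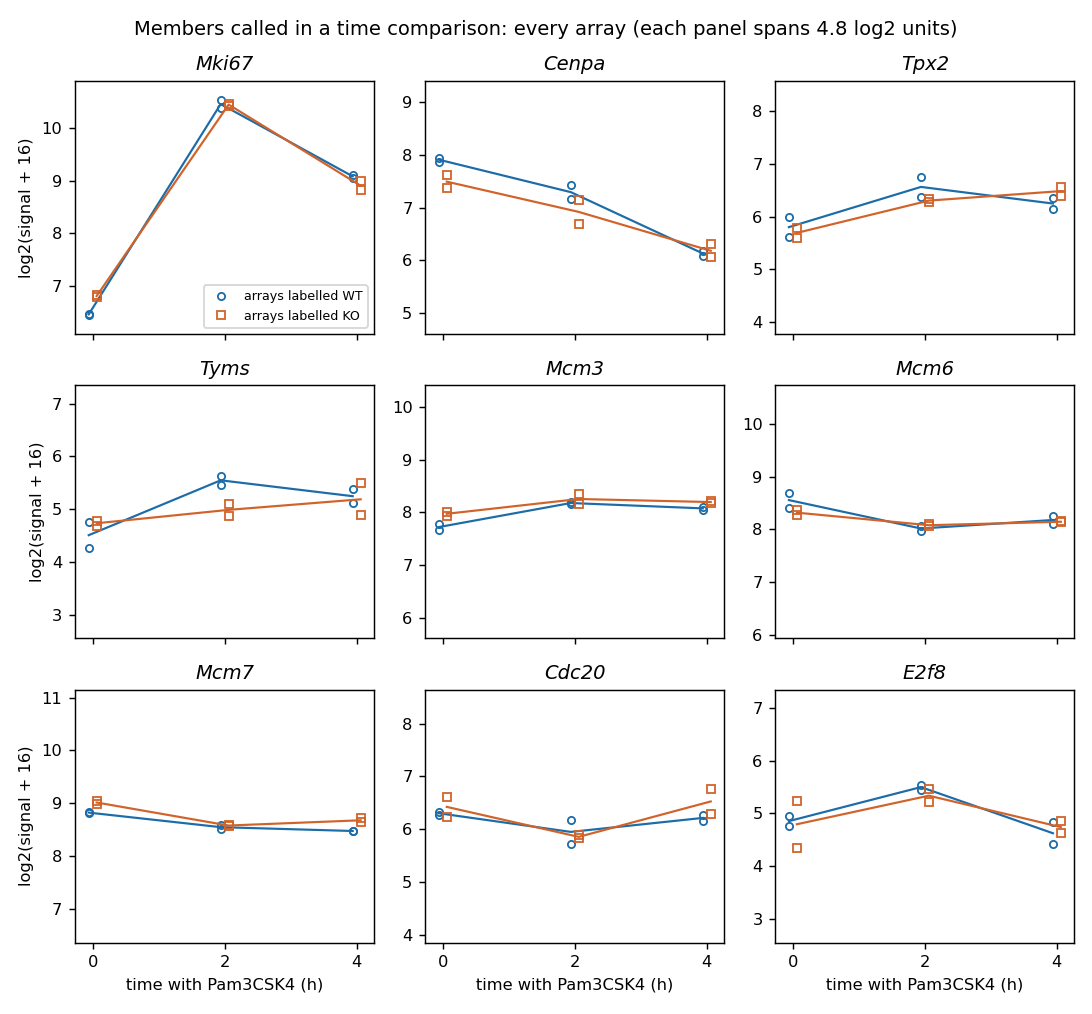
Level of the 9 genes called in a time comparison, as log2(signal + 16) on the vertical axis, against hours with Pam3CSK4. Open circles are single arrays labelled WT and open squares single arrays labelled KO, lines join the means of 2 arrays, and every panel spans the same range, so that the climb of Mki67 from 6.47 and 6.45 to 10.52 and 10.38 in WT can be set against the small moves of the rest and the steady fall of Cenpa.

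The median change of the 34 genes was -0.12 in WT and -0.14 in KO at 2 h, beside -0.05 and -0.06 over all genes tested. At 4 h it was -0.10 in both genotypes, beside -0.02 in WT and -0.05 in KO. Without Mki67, 11 of 33 genes in WT and 9 of 33 in KO lay above 0 at 2 h. As the median over all genes tested was also negative, most of all genes lay below 0 too. The highest value among these 33 genes at 2 h was Tyms in WT at 1.04, with a 95% interval reaching 1.56, and Tpx2 in KO at 0.61. The highest upper bound of any of the 33 in KO at 2 h was that of E2f8, at 1.12. No interval among them at 2 h thus reaches the lower bound for Mki67, which was 3.80 in WT and 3.45 in KO.

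The 25 genes called in no time comparison differed from 0 h by between -0.58 and 0.46. Of their adjusted p-values against 0 h the smallest was 0.052, for Birc5 in WT at 4 h. The median within-group SD was 0.18 for the tested S phase and mitosis genes and 0.15 for all genes.

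**Figure D2:**
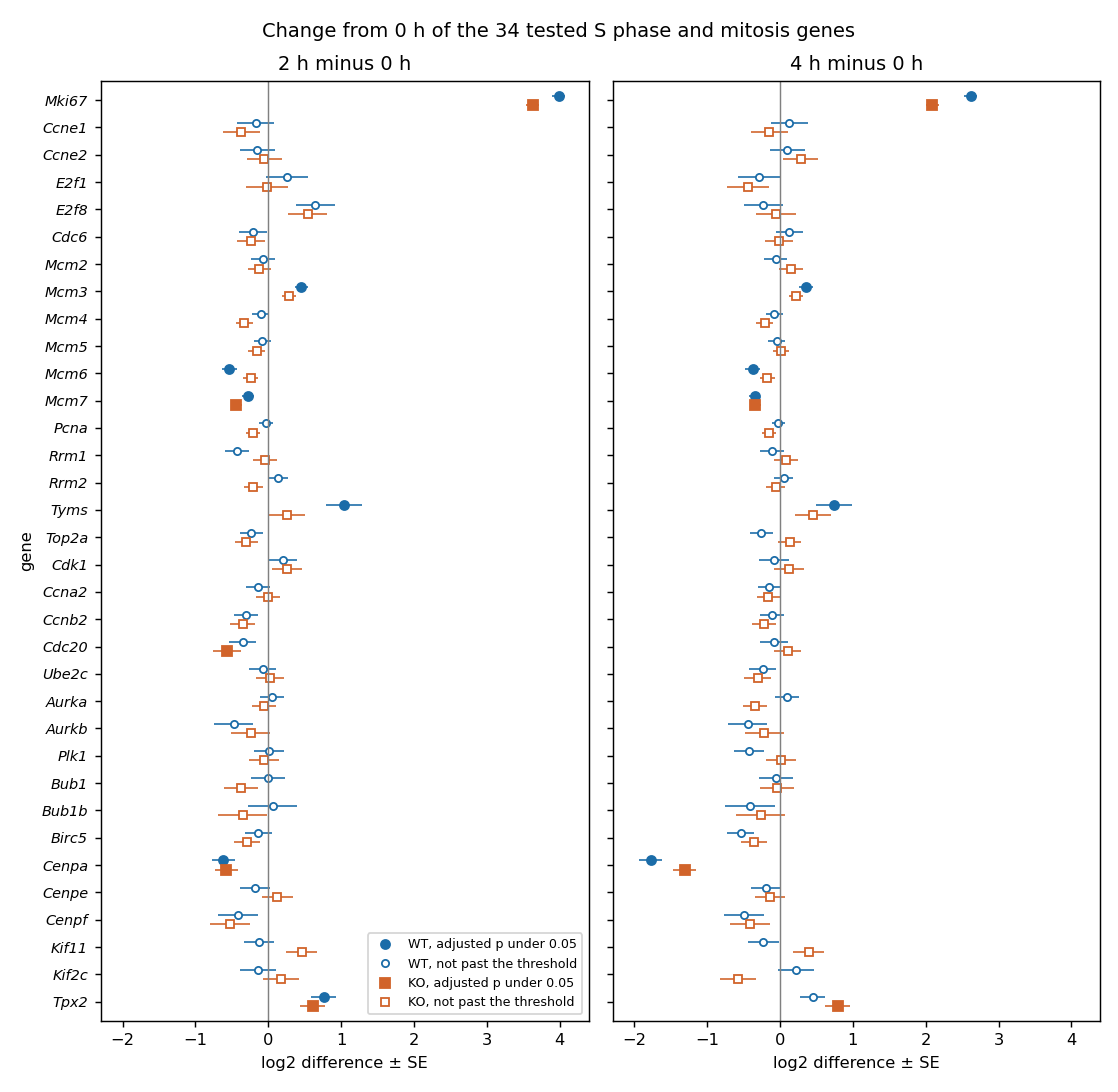
Difference from 0 h on the log2 scale, with its standard error, for the 34 tested genes at 2 h (left) and 4 h (right). Circles are WT, squares KO, and filled symbols passed an adjusted p of 0.05. Mki67 stands alone at 3.99 and 3.63 at 2 h, most other genes lie around 0, and Cenpa lies lowest at 4 h at -1.78 in WT and -1.31 in KO.

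None of the 5 genes for entry into S phase was called against 0 h. They were Ccne1 and Ccne2 (the E cyclins), E2f1 and E2f8 (E2F factors, the first an activator and the second a repressor) and Cdc6, which loads the MCM helicase. Their changes at 2 h lay between -0.21 and 0.64 in WT and between -0.37 and 0.54 in KO. E2f8 gave both upper values. It read 4.95 and 4.76 at 0 h, 5.45 and 5.55 after 2 h and 4.41 and 4.84 after 4 h in WT. In KO it read 4.35 and 5.24, then 5.46 and 5.21, then 4.62 and 4.86. The WT arrays at 2 h lie above all others of WT, whereas in KO the second array at 0 h overlaps those at 2 h. The rise to 2 h did not pass (WT 0.64, adjusted p = 0.11), but from 2 h to 4 h in WT it fell by 0.87 ± 0.27 (adjusted p = 0.0496). That call was kept in 6 of 21 alternatives, and leaving out any array labelled WT, or any labelled KO at 2 h or 4 h, ended it (adjusted p up to 0.30).

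The 6 subunits of the MCM helicase, which unwinds DNA at replication forks, split in direction. Mcm3 read 7.67 and 7.77 at 0 h, 8.16 and 8.19 after 2 h and 8.11 and 8.04 after 4 h in WT, and 7.94 and 8.01, then 8.35 and 8.16, then 8.22 and 8.17 in KO. Its arrays at 2 h and 4 h lie above those of 0 h in both genotypes. It rose by 0.46 ± 0.09 at 2 h (adjusted p = 0.0026) and by 0.35 ± 0.09 at 4 h (adjusted p = 0.015) in WT. In KO the differences, 0.28 and 0.22, did not pass. The 2 h call was kept in 21 of 23 alternatives, being lost on the deposited scale and with probe sets that have the suffix _x_at or _s_at left out, and the 4 h call in 19 of 23, being lost on the deposited scale, when probe sets were averaged, and with array A of WT 0 h or of WT 4 h left out.

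Mcm6 went the other way. It read 8.70 and 8.41 at 0 h, 8.07 and 7.97 after 2 h and 8.11 and 8.25 after 4 h in WT, and 8.36 and 8.28, then 8.06 and 8.10, then 8.15 and 8.14 in KO. In both genotypes the 0 h arrays are the highest. In WT it fell by 0.54 ± 0.10 at 2 h (adjusted p = 0.0014), a call that all 23 alternatives kept, and fell by 0.38 ± 0.10 at 4 h (adjusted p = 0.018), which was kept in 17 of 23 and ended on the deposited scale, when probe sets were averaged, and with array A of WT 0 h or of WT 4 h left out. In KO the differences were -0.24 and -0.17 and did not pass.

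Mcm7, read from its brightest probe set, was called in each comparison with 0 h, but not once its probe sets were averaged. It read 8.84 and 8.80 at 0 h, 8.59 and 8.50 after 2 h and 8.47 and 8.47 after 4 h in WT. In KO it read 9.03 and 8.99, then 8.57 and 8.58, then 8.63 and 8.71. The 0 h arrays are the highest in each genotype, without overlap. It fell by 0.28 ± 0.08 at 2 h (adjusted p = 0.021) and fell by 0.35 at 4 h (adjusted p = 0.0051) in WT, and fell by 0.44 (adjusted p = 9.4e-04) and 0.34 (adjusted p = 0.0063) in KO. The WT call at 2 h was kept in 15 of 23 alternatives and ended with either array of WT 0 h or array B of WT 2 h left out, and the KO call at 4 h with array A of KO 4 h left out. With the mean of its probe sets the differences were -0.22 and -0.23 in WT and -0.23 and -0.25 in KO, and none passed (adjusted p between 0.095 and 0.14). Without probe sets of suffix _x_at or _s_at only that in KO at 4 h passed (-0.41, adjusted p = 0.029), and on the deposited scale only that in KO at 2 h. The remaining subunits Mcm2, Mcm4 and Mcm5 were called in no time comparison and lay between -0.33 and 0.15 of their level at 0 h.

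Of the 5 genes for DNA synthesis, nucleotide supply and topology, 1 was called. Tyms, the thymidylate synthase, read 4.75 and 4.26 at 0 h, 5.63 and 5.46 after 2 h and 5.12 and 5.37 after 4 h in WT, and 4.78 and 4.68, then 4.88 and 5.09, then 5.49 and 4.88 in KO. The WT arrays at 2 h and 4 h lie above those of 0 h, and so do those labelled KO, though by little. It rose by 1.04 ± 0.24 in WT at 2 h (adjusted p = 0.0062) and by 0.74 ± 0.24 at 4 h (adjusted p = 0.047). The first call ended with array B of WT 0 h or array A of WT 2 h left out (adjusted p up to 0.084), and the second was kept in 7 of 21 alternatives. It lies close to the filter of 4.73, and its size depends on the pseudocount: the WT change at 2 h ran from 0.42 to 2.17 between pseudocounts of 64 and 1.

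In KO the Tyms differences of 0.25 and 0.45 did not pass. Pcna (the sliding clamp of DNA polymerase), Rrm1 and Rrm2 (ribonucleotide reductase) and Top2a (topoisomerase II, which untangles DNA) were not called at any time. Pcna read between 10.32 and 10.66 over the 12 arrays. Its largest change, a difference of -0.21 in KO at 2 h, had an adjusted p of 0.13.

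The next genes drive mitosis. Of Cdk1, the A and B cyclins Ccna2 and Ccnb2, and the APC/C proteins Cdc20 and Ube2c, which mark mitotic proteins for destruction, 0 of 5 were called against 0 h in WT, and Cdc20 alone in KO. Cdc20 read 6.62 and 6.23 at 0 h, 5.83 and 5.88 after 2 h and 6.29 and 6.77 after 4 h in KO, and 6.33 and 6.27, then 6.17 and 5.73, then 6.27 and 6.16 in WT. The KO arrays at 2 h lie below all others labelled KO. It fell by 0.57 ± 0.19 at 2 h in KO (adjusted p = 0.048) and rose by 0.67 ± 0.19 from there to 4 h (adjusted p = 0.029). The first call was kept in 8 of 23 alternatives and ended with any array of WT 0 h, WT 4 h or KO 2 h, or array A of KO 0 h, left out. The second ended with either array of KO 2 h or array B of KO 4 h left out, and its size was 0.24 with the mean of all probe sets of the gene and 0.03 without those of suffix _x_at or _s_at, neither of which passed.

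None of the 6 mitotic kinases, checkpoint and passenger proteins was called: Aurka and Aurkb (the Aurora kinases), Plk1 (Polo kinase), Bub1 and Bub1b (spindle checkpoint) and Birc5 (survivin, of the chromosomal passenger complex). Their changes ranged from -0.47 to 0.06 in WT and from -0.38 to -0.06 in KO at 2 h, and from -0.54 to 0.09 and from -0.36 to 0.01 at 4 h.

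Cenpa, the histone H3 variant that marks the centromere, was the S phase and mitosis gene with the steepest fall. It read 7.87 and 7.95 at 0 h, 7.16 and 7.43 after 2 h and 6.18 and 6.08 after 4 h in WT. In KO it read 7.62 and 7.37, then 7.14 and 6.70, then 6.06 and 6.31. In each genotype the 3 times are in descending order with no overlap between arrays. It fell by 0.62 ± 0.16 within 2 h (adjusted p = 0.011) and fell by 1.78 ± 0.16 within 4 h (3.43-fold; adjusted p = 7.3e-07) in WT, and fell by 0.57 (adjusted p = 0.019) and 1.31 ± 0.16 (2.48-fold; adjusted p = 2.3e-05) in KO.

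From 2 h to 4 h Cenpa fell by 1.16 in WT (adjusted p = 2.0e-04) and fell by 0.74 in KO (adjusted p = 0.0058). Both of its 4 h calls held in all 23 alternatives. Its 2 h call was kept in 21 of 23 in WT and 20 of 23 in KO. That in WT ended with array B of WT 0 h or array A of WT 2 h left out, and that in KO with array A of KO 0 h or array B of KO 2 h. Its call from 2 h to 4 h in KO ended with array A of KO 2 h or of KO 4 h left out. Averaging its probe sets gave -0.30 in WT and -0.065 in KO for 4 h against 2 h, and neither passed. The kinetochore genes Cenpe (a motor) and Cenpf were not called. Cenpf differed by -0.41 and -0.49 in WT and by -0.52 and -0.41 in KO.

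Tpx2, a spindle assembly factor that activates Aurora A, rose. It read 5.99 and 5.61 at 0 h, 6.38 and 6.75 after 2 h and 6.35 and 6.15 after 4 h in WT, and 5.60 and 5.79, then 6.33 and 6.28, then 6.40 and 6.57 in KO. The later arrays lie above those of 0 h in both genotypes. The rise was 0.76 ± 0.17 in WT at 2 h (adjusted p = 0.0050), and 0.61 (adjusted p = 0.021) and 0.79 (adjusted p = 0.0040) at 2 h and 4 h in KO. The WT difference at 4 h, 0.45, did not pass. All of these calls ended on the deposited scale. The WT call ended with array B of WT 0 h or of WT 2 h left out, and the KO call at 2 h with array A of KO 0 h or either array of KO 2 h left out. The kinesins Kif11 and Kif2c, which separate spindle poles and take microtubules apart, were not called and lay between -0.58 and 0.46.

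Several of these genes have further probe sets above the filter, which share the arrays and so are no replicates. All 4 of Tpx2 were above their 0 h mean at 2 h and 4 h in both genotypes. In KO at 4 h, however, the second brightest was only 0.04 above it, beside 0.79 for the brightest. The second of Cenpa differed by -1.25 and -0.87 in WT and by -1.01 and -0.68 in KO, so both read lower at every later time, although the second was lowest at 2 h. Of the 5 of Mcm3, 4 were higher at 2 h and 4 h in WT, and the fifth differed by 0.02 and -0.04. The second of Mcm6 differed by -0.63 and -0.43 in WT and by -0.61 and -0.30 in KO. Of the 4 of Mcm7, all were lower than at 0 h in WT at both times and in KO at 4 h. In KO at 2 h 3 were lower and the fourth was 0.11 higher. The second of Cdc20 differed from 0 h in KO by -0.32 at 2 h and -0.28 at 4 h. Tyms, E2f8 and Mki67 have 1 above the filter each.

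The scale matters for small changes. On the deposited scale, with no normalization between arrays, the median change of all genes was -0.35 in WT and -0.41 in KO at 2 h and -0.16 and -0.20 at 4 h. There, 2 of the 34 genes rose and 5 fell in WT at 2 h, where 2.1% of all genes tested rose and 15.8% fell. In KO at 2 h 1 rose and 10 fell (all genes, 1.52% and 25.2%). At 4 h Mki67 rose and Cenpa fell in each genotype and no other of the 34 was called (all genes, 1.96% and 4.54% in WT, 1.48% and 5.19% in KO). The falls at 2 h on this scale thus lie near the share of all genes.

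By genotype, 1 of the 34 genes was called at 0 h, where 1.95% of all genes tested were higher and 1.35% lower in KO. It was Mki67 itself, 0.35 ± 0.09 higher in arrays labelled KO (adjusted p = 0.037). Its 2 KO arrays, 6.84 and 6.78, lie above the 2 WT arrays, 6.47 and 6.45. The call was lost in 12 of 23 alternatives, among them the deposited scale and leaving out any array of WT 0 h, WT 4 h, KO 0 h or KO 2 h. The adjusted p was at most 0.18 when an array was left out.

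At 2 h and at 4 h 0 of the 34 genes were called between the genotypes. Of all genes tested, 1.01% were higher and 1.29% lower in KO at 2 h, and 1.13% and 1.26% at 4 h. At an unadjusted p under 0.05 the counts were 3 of 34 at 2 h and 5 of 34 at 4 h. The percentages of all genes are at an adjusted p under 0.05. Their share at the unadjusted threshold is not given here, so no excess can be read from these counts. Mki67 differed by -0.01 at 2 h (95% interval -0.19 to 0.17) and by -0.18 at 4 h (-0.36 to 0.01). The extremes at 2 h were Tyms at -0.56 and Kif2c at 0.61, and at 4 h Kif2c at -0.52 and Cdk1 at 0.52.

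The difference of the responses themselves was tested as an interaction, in which 0 of 34 genes were called at 2 h (all genes, 0% with a higher and 0.0313% with a lower response in KO) and 0 of 34 at 4 h (all genes, 0.0156% and 0.0313%). At an unadjusted p under 0.05 the count was 2 of 34 at each time. The share of all genes at that unadjusted threshold is not given here either. For Mki67 the response in KO was smaller by 0.36 at 2 h (difference -0.36, 95% interval -0.62 to -0.10; adjusted p = 0.73) and by 0.52 at 4 h (difference -0.52, -0.79 to -0.26; adjusted p = 0.36), neither of which passed over all genes. The Mki67 difference at 0 h, 0.35 higher in KO, enters both with a minus sign. As KO differed from WT by only -0.01 at 2 h itself and by -0.18 at 4 h, it makes up nearly all of the first and most of the second.

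Averaged over the 3 times, 2 of 34 genes were higher in KO and 0 lower, against 6.21% and 4.28% of all genes. Mcm2 was 0.33 ± 0.09 higher (adjusted p = 0.034) and Cdk1 0.40 ± 0.12 higher (adjusted p = 0.039). Cdk1 read 5.66 and 5.92 at 0 h, 5.84 and 6.13 after 2 h and 6.02 and 5.39 after 4 h in WT, and 6.21 and 5.99, 6.32 and 6.39, and 6.10 and 6.35 in KO. At each time both KO arrays lie above both WT arrays. Mcm2 read 6.63 and 6.38, 6.48 and 6.38, and 6.43 and 6.45 in WT, and 6.94 and 6.62, 6.44 and 6.87, and 6.98 and 6.88 in KO. Its groups overlap at 0 h and at 2 h, and its second probe set above the filter goes the other way at each time, so that the mean of both gives a difference of -0.027.

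The Cdk1 call was kept in 12 of 22 alternatives and ended with array A of WT 0 h, WT 2 h, KO 0 h or KO 2 h, or array B of WT 4 h, KO 2 h or KO 4 h, left out. The Mcm2 call was kept in 9 of 22 and ended with any single array left out other than array A of WT 0 h or KO 2 h or array B of KO 0 h. The 34 genes had a median of 0.10 in the averaged difference, beside 0.03 over all genes.

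Beyond the 37, lists of further genes of the same processes held calls in both directions, which are read against the shares of all genes given above (8.43% up and 11.5% down in WT at 2 h, 8.31% and 9.9% in WT at 4 h, 7.85% and 11.7% in KO at 2 h, 7.24% and 10.9% in KO at 4 h). Of 42 other replication genes tested, 2 rose and 4 fell in WT at 2 h, 2 rose and 4 fell in WT at 4 h, 1 rose and 5 fell in KO at 2 h, and 3 rose and 4 fell in KO at 4 h. Gins3, a subunit of the replicative helicase complex, fell most, by 1.60 ± 0.18 in WT at 2 h (adjusted p = 6.4e-06). It also fell by 1.64 in KO at 2 h, and by 1.45 in WT and 1.15 in KO at 4 h. Gmnn, or geminin, an inhibitor of MCM loading, fell by 0.59 in WT and 0.84 in KO at 2 h, and by 0.43 and 0.59 at 4 h. Rpa1, which binds single-stranded DNA, fell by 0.29 in WT and 0.41 in KO at 2 h, and by 0.48 and 0.33 at 4 h.

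Lig1, the DNA ligase of replication, fell by 0.65 at 2 h and 0.81 at 4 h in KO. Dbf4, the activator of the CDC7 kinase, fell by 0.38 in WT at 2 h. The histone chaperone gene Asf1b fell by 0.50 in KO at 2 h and 0.69 in WT at 4 h. Higher were Brca1, a DNA repair gene, by 0.67 and Fen1, the flap endonuclease, by 0.52 in WT at 2 h, and Cdc45, which joins the same helicase complex as Gins3, by 0.86 in KO at 2 h. At 4 h Uhrf1, which helps to copy DNA methylation, rose by 0.83 in WT and 0.68 in KO, Fen1 by 0.59 and 0.51, and Pold2, a subunit of DNA polymerase delta, by 0.47 in KO.

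Of 59 other mitosis genes tested, 3 rose and 4 fell in WT at 2 h, 2 rose and 3 fell in WT at 4 h, 4 rose and 5 fell in KO at 2 h, and 0 rose and 4 fell in KO at 4 h. Cks2, a binding partner of cyclin-dependent kinases, rose by 1.06 ± 0.10 in WT (adjusted p = 1.7e-06) and 0.90 in KO at 2 h, and by 0.50 in WT at 4 h. Lmnb1, which encodes lamin B1 of the nuclear lamina, rose by 0.96 in WT (adjusted p = 2.0e-05) and 0.88 in KO at 2 h. Mybl2, a transcription factor of cycling cells, rose by 1.00 in WT and 0.65 in KO at 2 h, and the kinase gene Melk by 0.69 in KO at 2 h. Bub3, of the spindle checkpoint, rose by 0.37 in WT at 4 h.

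Lower were the tubulin gene Tubb5, which fell by 0.30 in WT and 0.27 in KO at 2 h and by 0.26 and 0.43 at 4 h, and Incenp, of the passenger complex, which fell by 0.57 in WT at both times. The condensin gene Smc2 fell by 0.63 in WT at 2 h and its partner Smc4 fell by 0.39 in KO at 4 h. In KO at 2 h the kinetochore gene Ndc80 fell by 0.88 ± 0.23 and Sgo1, which guards sister chromatid cohesion, fell by 0.88 ± 0.27. Sgo1 also fell by 0.85 ± 0.27 in WT at 4 h. Both genes are dim. Their means in KO at 2 h, 4.32 and 4.63, and that of Sgo1 in WT at 4 h, 4.45, were under the filter level of 4.73. Stmn1, a microtubule destabiliser, fell by 0.42 in KO at 4 h.

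A further list held genes of the chromosome surface, the nucleolus, heterochromatin and protein phosphatase 1. The proteins of some of them, not of all, work with the Mki67 product. Of 11 genes tested, 1 rose and 2 fell in WT at 2 h, 3 rose and 1 fell in WT at 4 h, 1 rose and 1 fell in KO at 2 h, and 2 rose and 1 fell in KO at 4 h. The protein phosphatase 1 gene Ppp1ca fell by 0.29 in WT and 0.34 in KO at 2 h and by 0.40 and 0.45 at 4 h. Its relative Ppp1cc rose by 0.18 and 0.27 at 2 h, and Ppp1cb by 0.31 in KO at 4 h. Cbx1, a heterochromatin protein, fell by 0.30 in WT at 2 h. The nucleolar genes Ncl, Npm1 and Nifk rose by 0.28, 0.25 and 0.50 in WT at 4 h, and Ncl by 0.33 in KO.

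Across the 12 arrays the 33 other S phase and mitosis genes lay on both sides of 0 in their relation with Mki67. Their Pearson correlations with it ran from -0.86 for Mcm6 to 0.85 for Mcm3, with 4 above 0.5 (Mcm3, Tpx2, Tyms and E2f8) and 25 below 0. Mcm3 ranked as number 429 of the genes tested by that measure and Mcm6 as number 12398. E2f8 (r = 0.53), the lowest of the 4, ranked as number 1677 of the 12792 genes tested. Kif2c (r = -0.002), the highest of the 25, ranked as number 5405. Many of all genes thus also lay above 0.5, and most lay below 0. These correlations describe 12 arrays in 6 groups that share time and label, so they carry no test.

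The 6 genes most like Mki67 among all tested were Bcl2l1 (r = 0.997), Dusp14 (0.996), Glt8d1 (0.995), Dll4 (0.995), Rapgef2 (0.994) and Exoc3l4 (0.993). None is one of the 37 genes or of the wider lists. Bcl2l1 encodes the survival protein BCL-xL, Dusp14 a dual-specificity phosphatase, Dll4 a Notch ligand and Rapgef2 an exchange factor for the small GTPase RAP. In WT at 2 h Dusp14 rose by 4.01, Dll4 by 3.54, Bcl2l1 by 2.50, Rapgef2 by 1.85, Exoc3l4 by 1.54 and Glt8d1 by 1.31. In KO the rises were 3.76, 3.04, 2.38, 1.61, 1.38 and 1.27 in the same order. All 6 were lower at 4 h than at 2 h in both genotypes, Dusp14 by the most (it fell by 1.66 in WT and by 1.46 in KO). They were chosen for this likeness, so these values are a description.

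**Figure D3:**
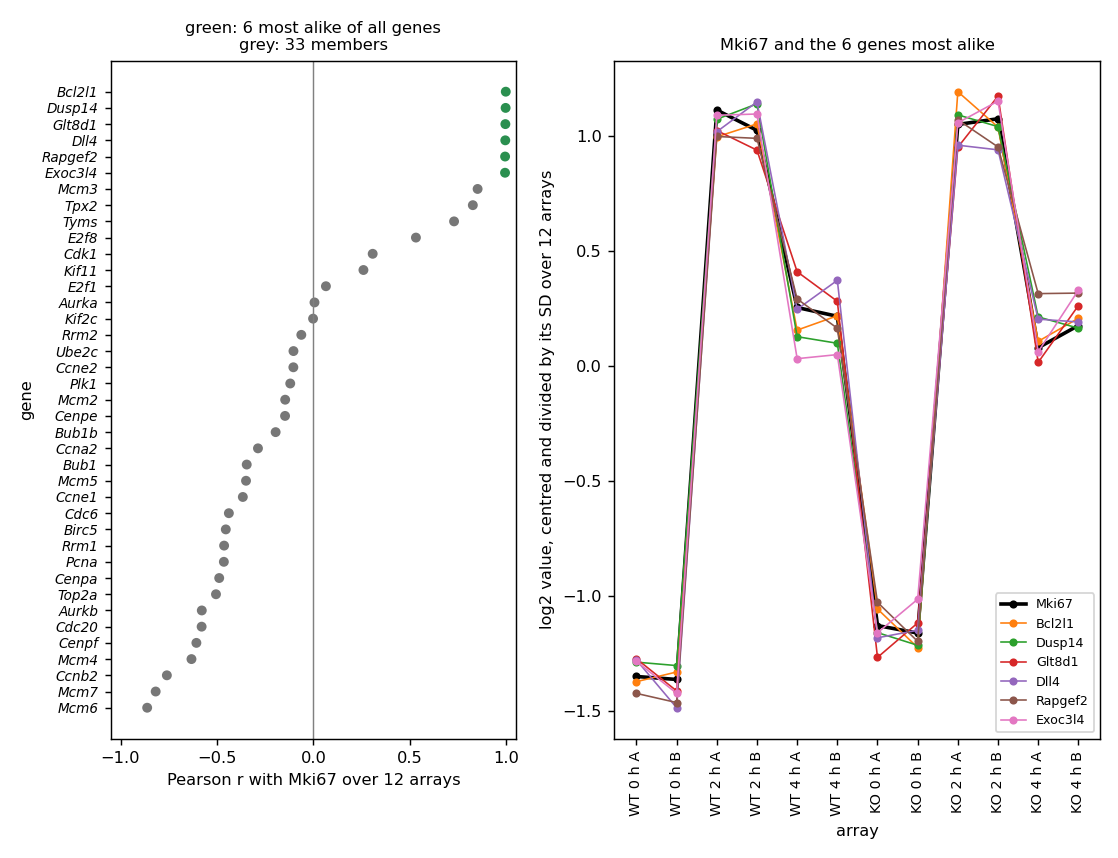
Left, Pearson correlation with Mki67 over 12 arrays for the 6 most alike of all genes tested (green, 0.993 to 0.997) and for the other 33 S phase and mitosis genes (grey, -0.86 to 0.85). Right, the log2 level of Mki67 and the same 6 genes on each array, centred and divided by its SD, where all 7 lines are low at 0 h, highest at 2 h and between at 4 h.

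The promoters hold the elements that such genes are known for. RefSeq windows of 300 bases around the gene start (GRCm38.p6) were at hand for 31 of the 37 genes, and those of Aurkb, Ccna2, Ccne2, Kif20a, Mcm4 and Tpx2 were not used here. Searched on both strands, CCAAT was in 25 of 31 windows (80.6%), beside 37.4% of all 32851 windows. The cell cycle homology region TTTGAA, a mark of mitotic genes, was in 16 (51.6%), beside 17.9%. The E2F motif TTTGGCGC was in 3 (9.68%), beside 0.514%, and the E2F motif TTTCCCGC also in 3 (9.68%), beside 1.07%. Of the NF-kB motifs GGGACTTTC, GGGAATTTC and GGGGATTCC, at least 1 was in 1 window (3.23%), that of Birc5, beside 0.861% of all windows. A match of letters is a description, not a bound site. The shortest of these motifs can share bases where they meet but none contains another.

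The stretches before the start of the gene that climbed, the gene that fell most and the MCM pair that parted are shown 5′ to 3′ on the gene's strand, with CCAAT (or ATTGG, its reverse), TTTGAA and TTTGGCGC in capitals. They lie at chr7:135716451-135716629 (minus strand), chr5:30666636-30666876 (plus), chr1:20820313-20820562 (minus) and chr1:128359706-128359955 (minus), in the order given.
Mki67: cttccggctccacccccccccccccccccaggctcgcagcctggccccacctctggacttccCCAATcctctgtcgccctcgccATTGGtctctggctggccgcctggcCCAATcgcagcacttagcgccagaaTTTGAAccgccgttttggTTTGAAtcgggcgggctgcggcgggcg
Cenpa: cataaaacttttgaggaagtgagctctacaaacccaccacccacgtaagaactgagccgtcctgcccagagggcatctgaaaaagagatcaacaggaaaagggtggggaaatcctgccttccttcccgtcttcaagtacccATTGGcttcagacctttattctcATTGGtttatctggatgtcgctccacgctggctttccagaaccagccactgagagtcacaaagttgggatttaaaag
Mcm3: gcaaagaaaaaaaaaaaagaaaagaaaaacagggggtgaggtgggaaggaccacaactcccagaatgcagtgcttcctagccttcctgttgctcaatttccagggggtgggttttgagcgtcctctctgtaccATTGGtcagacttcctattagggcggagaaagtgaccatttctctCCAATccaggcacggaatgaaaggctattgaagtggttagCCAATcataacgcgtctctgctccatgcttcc
Mcm6: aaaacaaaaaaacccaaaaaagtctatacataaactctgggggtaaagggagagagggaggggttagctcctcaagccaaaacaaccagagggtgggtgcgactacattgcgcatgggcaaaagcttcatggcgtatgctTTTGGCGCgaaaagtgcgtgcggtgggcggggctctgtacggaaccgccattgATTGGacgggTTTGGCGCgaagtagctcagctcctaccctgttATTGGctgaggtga
The Mki67 stretch holds 3 CCAAT boxes and 2 TTTGAA elements, the Cenpa stretch 2 CCAAT boxes, the Mcm3 stretch 3 CCAAT boxes, and the Mcm6 stretch 2 CCAAT boxes and 2 TTTGGCGC elements. The window of Cenpa also holds TTTGAA, outside the stretch shown. The windows of Mcm3 and Mcm6 both hold E2F and CCAAT letters, those of E2F in Mcm3 outside the stretch shown. Mcm3 and Mcm6 moved in opposite directions in WT.

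Markers of other cell types also changed. Counts of calls here and below are read against the shares of all genes tested. At 2 h these were 8.43% up and 11.5% down in WT and 7.85% and 11.7% in KO. At 4 h they were 8.31% and 9.9% in WT and 7.24% and 10.9% in KO. Averaged over the times, 6.21% of all genes were higher in KO. In bulk RNA, fewer cells of a type and less RNA per cell cannot be told apart. Of 10 macrophage and monocyte markers, 0 rose and 4 fell in WT and 0 rose and 7 fell in KO at 2 h, and 1 rose and 6 fell in WT and 1 rose and 7 fell in KO at 4 h. Their summed signal was 3161 to 3206 at 0 h, 2307 to 2535 at 2 h and 2072 to 2265 at 4 h in WT, and 5225 to 5374, 3765 to 3901 and 3595 to 3730 in KO, and 8 of 10 were higher in KO averaged over the times. Of 8 B cell markers tested, 3 and 2 fell in WT at 2 h and 4 h and 1 and 3 fell in KO, with none called higher. The uncalled Ms4a1 had higher means later, going from 7.56 to 7.93 and 7.94 in WT and from 7.89 to 8.07 and 8.11 in KO. The B cell sum went from between 629 and 646 to between 584 and 594 and then to between 491 and 499 in WT, and from between 756 and 835 to between 727 and 732 and to between 535 and 611 in KO. The B cell factor Pax5 was below the filter.

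Of 9 T cell markers, 0 rose in any of these comparisons and 3 fell in WT at 4 h, with a sum of 1327 to 1373 at 0 h, 1269 to 1303 at 2 h and 1085 to 1115 at 4 h in WT, and of 1280 to 1373, 1152 to 1184 and 1137 to 1199 in KO. Cd4 was below the filter. No listed marker was at 0, but neither was any deposited signal, the lowest being 0.018 on array B of KO 2 h. A marker above 0 thus does not show that its cell type was present. Macrophage, B cell and T cell sums were thus lower after 2 h and after 4 h, as Cenpa was.

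The sums of other lists moved upward or in the order of Mki67 in at least 1 genotype, though each list held genes that went the other way. The plasma cell sum was 2829 to 2884 at 0 h, 3226 to 3397 after 2 h and 2854 to 2908 after 4 h in WT, and 2951 to 3010, then 3441 to 3491, then 2695 to 2853 in KO, highest after 2 h as Mki67 was. Of its 6 genes tested, 1 rose at 2 h in each genotype, Irf4, which is also on the list of dendritic cell markers. Irf4 went from 7.36 to 9.74 in WT and from 7.75 to 9.94 in KO, and the 2 h peak of the sum comes from this gene. Jchain, Xbp1, Sdc1 and Mzb1 were lower at 2 h than at 0 h in both genotypes, and Prdm1 was higher. The neutrophil sum went from between 155 and 168 to between 196 and 238 and then to between 353 and 374 in WT, and from between 138 and 144 to between 150.1 and 157 and to between 367 and 399 in KO, with 5 of its 7 genes above the filter. Its brightest gene, S100a8, went from 6.44 at 0 h to 8.10 at 4 h in WT and from 6.28 to 7.95 in KO. Over the same time Csf3r went from 5.30 to 5.02 in WT and from 5.14 to 5.76 in KO. The NK cell sum was 1993 to 2123 over all WT arrays, and in KO 2036 to 2272 up to 2 h and 2484 to 2491 after 4 h. From 0 h to 4 h in KO its gene Gzmb went from 9.91 to 10.49, whereas Klrd1 went from 9.27 to 8.36. The dendritic cell sum was 33162 to 33213 at 0 h, 38451 to 38501 after 2 h and 39617 to 40125 after 4 h in WT, and 32369 to 32436, then 36043 to 38004, then 38244 to 39392 in KO. Within 2 h its gene Ccl22 went from 11.74 to 12.67 in WT and from 11.76 to 12.81 in KO. Flt3 went down, from 10.39 to 9.99 in WT and from 10.15 to 9.91 in KO.

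By genotype, the macrophage and B cell sums were higher in KO than in WT at each time, as Mki67 was at 0 h and Mcm2 and Cdk1 were over the 3 times. So was the stromal and endothelial sum, at 608 to 689, 691 to 788 and 595 to 634 in WT and 994 to 1010, 994 to 1037 and 888 to 931 in KO. Its brightest gene, Pdpn, was higher in KO at each time, at 8.89 against 8.31 in WT at 2 h and 9.04 against 8.19 at 4 h. Cdh5, Pecam1 and Lyve1 were also higher in KO at each time. The dim Col1a1 was lower, at 4.76, 4.64 and 4.57 in KO against 4.92, 4.88 and 4.78 in WT. Pdgfrb was lower in KO at 2 h and Col1a2 at 4 h. The germinal centre B cell sum was lower in KO, at 6173 to 6919 over all times against 7611 to 7981 in WT. That sum mostly reads Basp1, far the brightest gene of the list. Basp1 was 12.80, 12.82 and 12.81 in WT and 12.52, 12.61 and 12.54 in KO at the 3 times. Among the dimmer genes, Gcsam was lower in KO at each time. S1pr2 was higher, at 6.88, 6.39 and 6.40 in KO against 6.44, 6.05 and 6.11 in WT. The 3 erythroid markers were all below the filter. The part of these cells in the changes was not tested.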

How the data were processed

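RNA of 12 samples was measured on Affymetrix mouse 3' arrays, after Trizol extraction and 3' in vitro transcription labelling per the labels' protocols. The authors deposited intensity values, 1 linear signal per probe set, made with MAS5 according to the submitters' processing notes. The sources used here give neither its version nor its scaling nor any detection call. The number of arrays limits the precision.

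The genes and gene lists were chosen with earlier results of these data known. Of 45101 probe sets, 34958 had 1 symbol in the platform annotation, 932 several and 9211 none. Symbols were matched to RefSeq (GRCm38.p6). Signals were quantile normalized and tested as log2(signal + 16). The brightest probe set stood for a gene, and genes under the 40th percentile of probe set means (4.73, a signal of 10.6) were left out. In R 4.3.3, limma 3.58.1 (lmFit, then eBayes with a trend) fitted 6 group means, with 6 residual degrees of freedom and 9.13 from the prior. Two-sided p-values were adjusted by Benjamini-Hochberg over 12792 genes in each of 12 comparisons, with calls at 0.05. The fit was tested on simulated data. Errors after ± are standard errors.

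Named genes are all genes of the list called in a comparison, up to 3 genes per direction with the smallest p from each wider list, and the 6 genes with the highest correlation with Mki67. For a gene named from a wider list, its calls in other comparisons with 0 h are also given. Each choice was varied in turn: pseudocounts (1, 64), the scale (as deposited, or scaled by trimmed mean), the filter (none, 60th percentile), the probe sets (mean over a gene, or none with _x_at or _s_at), the fit (no trend, compared groups alone, replicate letter as block) and the arrays (each left out). Sequences are RefSeq's.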

Additional observations from a re-analysis of the deposited data

How the results depend on the processing

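The number of S phase and mitosis genes called stayed within 1.5 times its value in 17 to 22 of 23 alternatives for each of the 6 time comparisons. It did so in only 11 of 23 for KO against WT at 0 h and in 8 of 22 for the difference averaged over the times. It was 0 in all alternatives for KO against WT at 2 h and 4 h and for both differences of responses. On the deposited scale it was 2 (WT 4 h against 0 h), 11 (KO 2 h), 2 (KO 4 h) and 0 for KO against WT at 0 h and averaged. With the mean of all probe sets it was 1 for 4 h against 2 h in WT and in KO, and 1 for KO against WT averaged, where Mcm2 turned to -0.027. For KO at 2 h it was 3 without _x_at and _s_at probe sets and 3 without trend. For KO against WT at 0 h it was 0 with a pseudocount of 64, without trend and with only the groups compared, and for the averaged difference 0 without filter and 0 without trend. The cause of these shifts was not tested. Leaving out 1 array gave 3 to 7 genes for WT 2 h, 3 to 7 for WT 4 h, 2 to 3 for WT 4 h against 2 h, 2 to 7 for KO 2 h, 4 to 5 for KO 4 h, 1 to 4 for KO 4 h against 2 h, 0 to 1 for KO against WT at 0 h and 0 to 2 averaged. The lowest counts came without WT 0 h B (WT 2 h), WT 4 h A (WT 4 h), KO 0 h A (KO 2 h) and KO 2 h A (KO 4 h against 2 h). A lone array left in a group was assumed to vary like the other groups.

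Over 15 pairs of groups the deviations of same-letter arrays correlated only weakly, at -0.04 to 0.10 (median 0.02), with 1 pair over 0.1. Whether a letter marks a shared animal, culture or day cannot be told from these values. With the replicate block the counts were 7, 7 and 3 in WT (2 h, 4 h, 4 h against 2 h), 5, 4 and 3 in KO, 1 for KO against WT at 0 h, 2 averaged and 0 elsewhere. With 2 arrays a group, changes smaller than those called may go unseen.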
